A study of Drosophila melanogaster with 12 samples.

Results

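Fructose and glucose were each fed to Drosophila larvae at 0.3 M and at 1.7 M, and the comparison described here asks, gene by gene, whether the fat body changed by the same amount when the concentration of one sugar or of the other was raised. The difference was taken as the response to glucose, HGD minus CGD, minus the response to fructose, HFD minus CFD, on log2(value + 1). It used all 12 libraries of the series and all 9500 genes of the deposited table. Every gene of that table has a read in every library. A gene without reads on a diet could therefore not be seen here. A positive difference means that a gene rose more, or fell less, with glucose. The diets were CFD (0.3 M fructose), HFD (1.7 M fructose), CGD (0.3 M glucose) and HGD (1.7 M glucose), with 3 libraries each. Each library was made from the fat bodies of wandering third-instar females. All 4 groups had the same parents, w1118 males and UAS-Dcr2; r4-GAL4 females, so the fat body driver r4 expressed Dicer-2 on the control diets too. The growth notes also speak of a double-stranded RNA against InR, but neither the cross they name nor the study's methods include it, and the libraries were taken as the control genotype. Dcr-2 held 35277 to 61475 normalized counts per library, in which reads of the transgene and of the resident gene were not separated, and its difference was -0.07 (95% interval -0.81 to 0.68). That of InR was 0.21 (-0.33 to 0.76).

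Glucose enters metabolism through hexokinase and passes phosphofructokinase, the main control point of glycolysis. Fructose can be phosphorylated by hexokinase as well, and in mammals most of it enters below that control point as fructose-1-phosphate. In insects the polyol route, in which aldose reductases and sorbitol dehydrogenases pass glucose to fructose by way of sorbitol, links both sugars. The larval fat body does the work of liver and adipose tissue: it makes trehalose, glycogen and triglyceride, stores protein for metamorphosis, and secretes antimicrobial peptides.

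Whole reads could be recovered from the deposited values. Summed over the genes of the deposited table, they came to 6916320 to 11134938 in 11 libraries and 3484911 in HFD replicate 2. These sums are not sequencing depths. The study lists more mapped reads for every library, in a narrower range. Why the sum of HFD replicate 2 was low was not tested. The authors scaled the libraries of each sugar separately, so a level on a glucose diet cannot be set directly against one on a fructose diet. Such a constant factor drops out of the difference. Some libraries stood apart. HFD replicate 1 had a mean log2 level of 8.73 over the 14 mitochondrially encoded genes, against 10.13 to 12.15 elsewhere. CGD replicate 3 had the highest summed larval storage proteins, 3552400 against 1415599 to 2511359, and the lowest muscle and salivary gland marker levels. Over the 50 gene lists described below, leaving out CGD replicate 3 gave the highest list median of all single omissions in 16 lists, and leaving out HFD replicate 3 gave the lowest in 11.

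No gene was called. limma with Benjamini-Hochberg adjustment over 9500 genes found 0 genes (0% of those tested) at an adjusted p under 0.05, and the smallest adjusted p was 0.934. At an unadjusted p under 0.05 there were 408, of which 220 were positive (2.32% of all genes) and 188 negative (1.98%). Together these were fewer than that threshold would pass on average if no gene differed. With median-of-ratios scaling the split turned to 153 positive and 235 negative, and with limma-voom on the recovered reads, which also made 0 calls, to 136 and 236. The 408 genes became 931 without HGD replicate 1, 715 without CFD replicate 1, 255 without CFD replicate 2 and 266 without HGD replicate 2. No such omission gave a call, and the smallest adjusted p over all of them was 0.288.

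Most estimated differences were smaller than what could be resolved. The absolute difference had a median of 0.23 and an upper quartile of 0.42, while the 95% interval reached 0.67 to either side of a typical gene. That interval lay wholly within 1 log2 unit of 0, a 2-fold difference between the responses, for 5327 genes (56.1%). By mean level the share was 2.75% of the 1634 genes under a normalized count of 20, 48.3% of the 3038 genes from 20 to 100, and 81.1% of the 4071 genes from 100 to 1000. Above 1000 it was 68% of 757 genes. A difference beyond 1 was estimated for 170 genes on each side. For most genes with few counts, then, the interval did not exclude a 2-fold difference between the sugars. A narrow interval does not mean that a 2-fold difference would have been called. Dll, with a difference of -0.97, had an unadjusted p of 0.0006 and an adjusted p of 0.934 by limma.

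**Figure D1:**
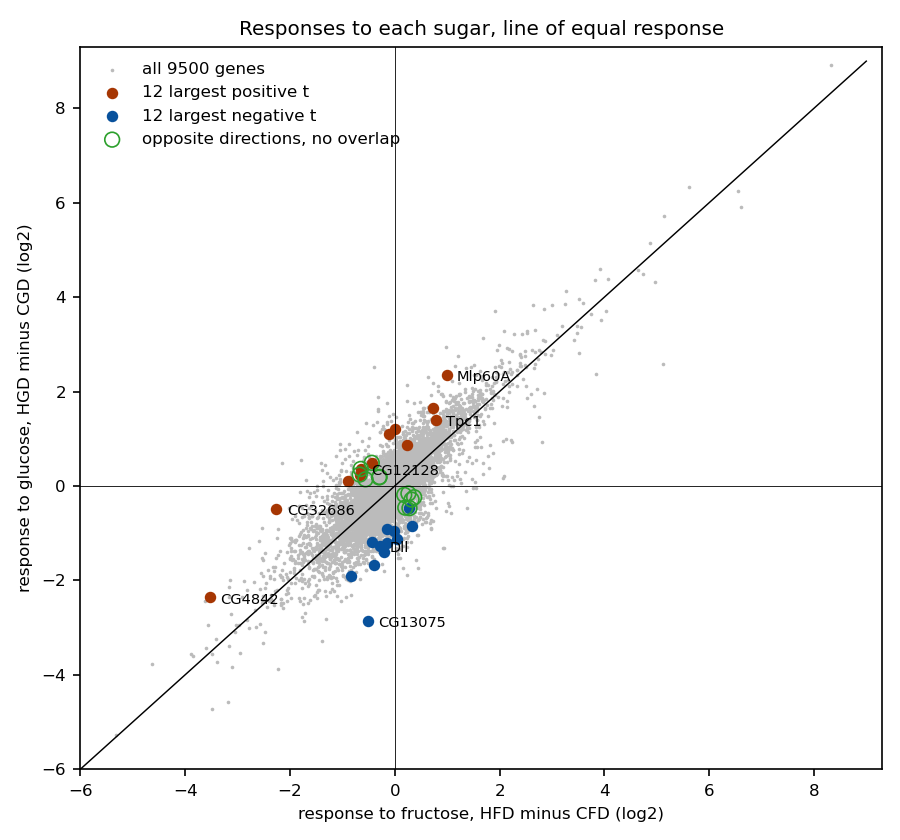
Response of each of the 9500 genes to fructose (x axis, HFD minus CFD, log2) and to glucose (y axis, HGD minus CGD, log2), with the line of equal response. Red and blue points are the 12 genes with the largest positive and negative moderated t of the difference and green rings mark the genes named for opposite directions; none of these 9500 differences was called.

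The genes were then split by direction on the pooled contrast, which takes the mean of both responses and can also call a gene that moved with a single sugar. High sugar over both diets, against both control diets, raised 2014 genes (21.2%) and lowered 1970 (20.7%) at an adjusted p under 0.05 by limma. Glucose gave the larger rise in 1543 of the 2014 genes (76.6%), against 58% of all genes with a positive difference. Their median response was 0.70 with glucose and 0.54 with fructose. Among the 1970 genes that fell, the fall was larger with glucose in 1088 (55.2%), against 42% of all genes with a negative difference, and the medians were -0.82 and -0.74. Without HFD replicate 1 the share of falls that were larger with glucose was 49.1%. The share over all genes depended on scaling. Of the 9500 genes 5513 were positive here, 5109 with median-of-ratios scaling and 5054 with limma-voom on the recovered reads. All of these shares describe the libraries and carry no test.

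For the genes that moved most on the pooled contrast, most differences were small beside the responses. Cyp4e3, a cytochrome P450 gene, rose by 8.34 with fructose and 8.91 with glucose, a difference of 0.58 (95% interval -1.07 to 2.22) that became -0.02 without CGD replicate 2. The differences of the next largest rises were -0.31 for obst-J, a chitin-binding protein gene, -0.69 for CG43402, 0.71 for CG3348 and 0.58 for CG17999. Among the largest falls they were 0.04 for CG9672, 0.87 for the lysozyme gene LysB, 0.33 for CG32335 and -1.25 for spok, a cytochrome P450 gene of ecdysone synthesis. CG42807 had the widest gap, from 687 to 2178 on CFD, 66.4 to 245 on HFD, 2166 to 2868 on CGD and 73.3 to 153 on HGD. Its response was -3.18 with fructose and -4.59 with glucose (difference -1.41, 95% interval -2.76 to -0.05).

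The 12 largest positive moderated t values, among genes with a mean of at least 20, belonged to differences of 0.61 to 1.76 (SE 0.18 to 0.47, unadjusted p = 0.00242 to 0.00825, adjusted p at least 0.934 by limma). They were reached in several ways. CG32686 (X 10371717 to 10375316, BDGP6.54) fell with fructose, and with glucose the 2 groups overlapped. Its libraries held 26.3, 36.1 and 29.6 on CFD, then 9.59, 4.13 and 4.21 on HFD. With glucose they held 27.0, 31.2 and 26.2 on CGD, then 15.3, 31.2 and 15.6 on HGD. The fructose response was -2.26 (adjusted p = 0.000512, limma), the glucose response -0.49 (adjusted p = 0.282), and the difference 1.76 (95% interval 0.74 to 2.79). Without HGD replicate 2, the library that stayed at the control level, the difference was 1.44.

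CG4842 (3L 16368389 to 16369518) fell with both sugars, and further with fructose. Its 3 libraries stood at 145, 135 and 124 on CFD and 13.7, 9.51 and 9.43 on HFD. They stood at 79.9, 118 and 108 on CGD and 15.2, 17.1 and 25.5 on HGD. The responses were -3.53 and -2.36, both called (adjusted p = 9.38e-07 and 1.6e-05, limma), and the difference was 1.17 (95% interval 0.46 to 1.89). CG9437, listed today as hng1, fell with fructose from 34.8 to 46.8 on CFD to 19.9 to 24.5 on HFD, while CGD (41.6 to 53.1) and HGD (45.8 to 57.4) overlapped.

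Tpc1 and Mlp60A rose with both sugars, and further with glucose. Tpc1 (3R 10879572 to 10882188) encodes a mitochondrial carrier of thiamine pyrophosphate, the cofactor of pyruvate dehydrogenase and transketolase. It rose from 292, 325 and 313 on CFD to 516, 494 and 591 on HFD, and from 248, 283 and 279 on CGD to 777, 703 and 659 on HGD. No library of a high-sugar diet overlapped its control, and the responses of 0.78 and 1.40 differed by 0.62 (95% interval 0.23 to 1.0). Over single omissions the difference of Tpc1 stayed between 0.55 and 0.69. Mlp60A encodes a muscle LIM protein. It went from 56.9, 100 and 116 to 239, 161 and 138 with fructose and from 66.2, 39.3 and 33.9 to 235, 267 and 200 with glucose, a difference of 1.36 (95% interval 0.46 to 2.27). With the mean level of the muscle list as a covariate that difference was 0.81. meso18E, named for expression in the mesoderm, followed the same pattern with responses of 0.73 and 1.66.

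CG32702, the fly cubilin (an endocytic receptor known from nephrocytes), CR15821 and CG15528 rose past the threshold with glucose alone. CG32702 went from 325 to 366 on CGD to 616 to 652 on HGD (response 0.86, adjusted p = 0.000625, limma), and with fructose its response was 0.24. The responses of the noncoding gene CR15821 were 1.2 and 0.01, and those of CG15528 were 1.11 and -0.12. None of these 3 differences was called.

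Every one of the 12 genes with the largest negative t fell with glucose past the threshold, against 13% of all genes, and 2 of the 12 also fell with fructose, against 9.84% of all genes. This count follows in part from the choice, since the glucose response is one arm of the difference. The differences ran from -0.74 to -2.35 (SE 0.2 to 0.57, unadjusted p = 0.0006 to 0.00405, adjusted p at least 0.934 by limma). Dll, which encodes the homeodomain protein Distal-less of limb development, had the smallest p. It stood at 80.1, 86.3 and 86.3 on CFD, 61.3, 66.2 and 79.3 on HFD, 115, 117 and 111 on CGD, and 48.3, 42.3 and 50.9 on HGD. Its glucose response of -1.27 (adjusted p = 8.41e-05, limma) and fructose response of -0.29 (adjusted p = 0.205) gave -0.97 (95% interval -1.44 to -0.50). Omitting any single library left the difference of Dll between -1.05 and -0.87.

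CG13075 (3L 16083993 to 16085264), a gene of the study's own table of glucose against fructose, had the largest negative difference of the 12. Its libraries held 21.2, 19.0 and 20.5 on CFD and 23.4, 10.7 and 10.5 on HFD, which overlap. They held 136, 86.1 and 36.4 on CGD and 8.94, 9.07 and 10.8 on HGD, which do not. The difference was -2.35 (95% interval -3.58 to -1.11). The spread of the CGD libraries was itself wide, and omitting them in turn moved the value from -2.86 without CGD replicate 3 to -1.92 without CGD replicate 1.

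CG9996, listed today as shams, a xylosyltransferase that acts on Notch, had tight replicates. Its libraries held 28.7 to 35.3 on CFD, 28.8 to 29.7 on HFD, 49.0 to 51.3 on CGD and 18.1 to 22.5 on HGD, and the difference was -1.08 (95% interval -1.64 to -0.52). CG10006, or Zip71B, a zinc transporter gene, fell from between 66.4 and 117 to between 48.0 and 51.2 with fructose and from between 143 and 204 to between 44.3 and 51.0 with glucose. The 2 groups of each sugar did not overlap for CG10006, and its difference was -1.07 (95% interval -1.71 to -0.44). me31B, a DEAD-box helicase that represses and stores mRNA, overlapped with fructose (256 to 399 on CFD and 264 to 342 on HFD) and separated with glucose (466 to 542 on CGD and 214 to 321 on HGD). The difference of me31B was -0.93 (95% interval -1.51 to -0.35). FK506-bp1, a nuclear immunophilin now named Fkbp39, fell with both, by 0.44 and 1.19 on the log2 scale. The remaining negative genes were CG15279 (-1.19), the organic anion transporter gene Oatp58Db (-1.29), toy, a Pax6 gene of eye development (-1.16), sip2 (-0.78), CG9705 (-0.74) and CG6066 (-1.18).

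Of these 24 genes, 6 positive and 4 negative ones overlap another annotated gene in BDGP6.54, among them CG32686, CG12128, CG9437, CG13075 and CG10006. The sources used here do not give whether counting used strand, and without it the reads of 2 such partners cannot be told apart.

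**Figure D2:**
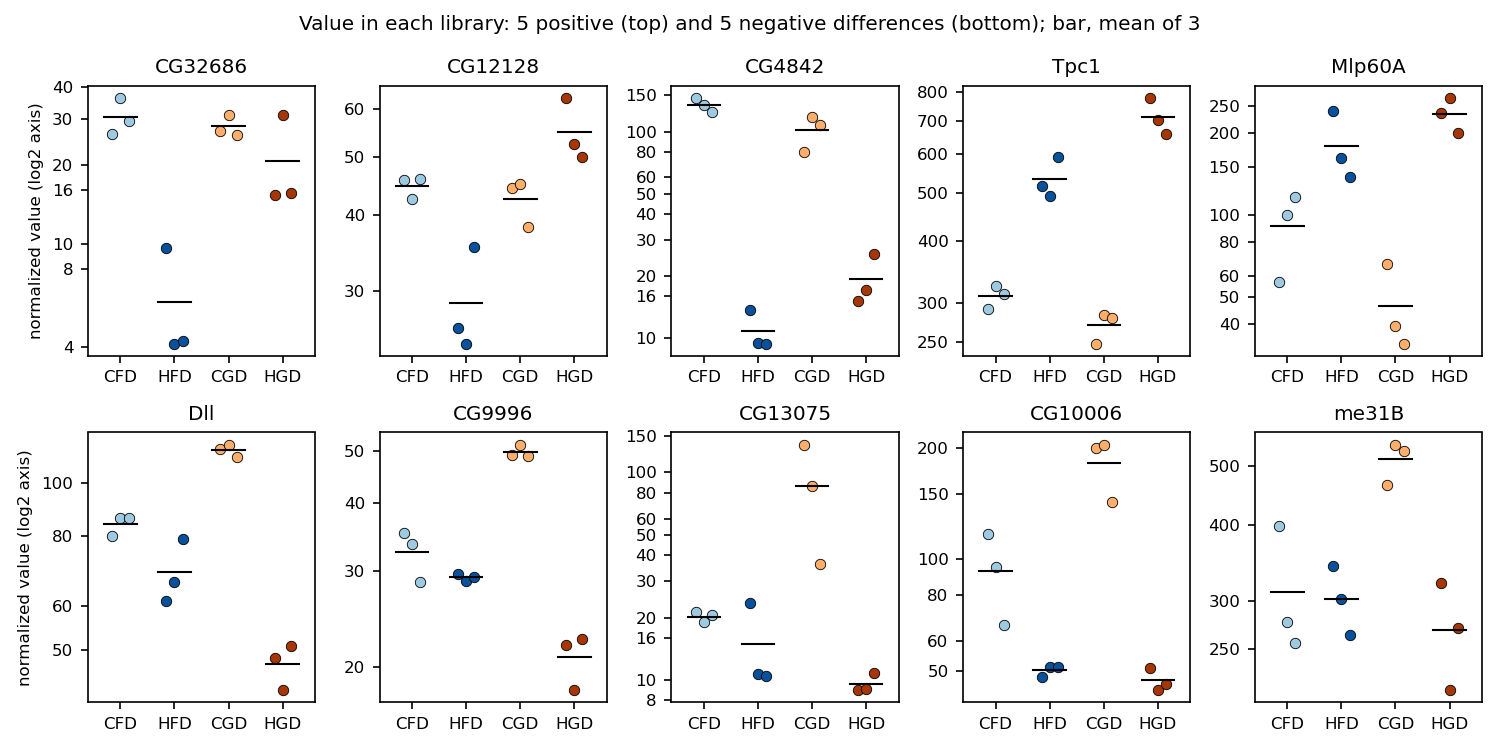
Normalized value (y axis, log2 scale) of 10 of these genes in each of the 12 libraries, by diet on the x axis, with the mean of 3 as a bar. Tpc1 and Mlp60A climbed further with glucose, CG32686 and CG4842 fell further with fructose, and in the bottom row CGD and HGD libraries were wholly separated while CFD and HFD libraries were closer or overlapped.

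Few genes moved in opposite directions. In 21 genes (0.221% of 9500) the libraries of the 2 concentrations did not overlap for either sugar and the sign was opposite, against 1323 genes that were higher and 1117 that were lower with both. Of the 21, 10 fell with fructose and rose with glucose and 11 did the reverse. CG12128 stood at 42.6 to 46.0 on CFD and 24.5 to 35.4 on HFD but at 38.2 to 45.1 on CGD and 49.9 to 62.5 on HGD, a difference of 1.01 (95% interval 0.42 to 1.59). Its fructose response was called (-0.65, adjusted p = 0.0306, limma) and its glucose response of 0.36 was not.

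Over the 21 genes the differences ran from 0.48 to 1.25 among those that rose with glucose and from -2.23 to -0.31 among those that fell. The rule for named genes took up to 6 each way with a mean of at least 20, which 15 of the 21 had. pog, a G protein-coupled receptor gene needed in gastrulation, had responses of -0.67 and 0.24 and pncr009:3L, a noncoding gene, of -0.44 and 0.49. Updo, the uroporphyrinogen decarboxylase of heme synthesis, went from between 186 and 239 to between 166 and 181 with fructose, and from between 236 and 255 to between 260 and 293 with glucose. Its difference was 0.48 (95% interval 0.08 to 0.88). CG12123 and CG14671 had differences of 0.70 and 0.48. In the reverse direction, Mitf, a transcription factor of lysosome genes, went from between 204 and 212 to between 234 and 243 with fructose and from between 272 and 325 to between 158 and 263 with glucose, a difference of -0.66 (95% interval -1.17 to -0.15). CG9705 (responses 0.28 and -0.47), CG5877 (0.32 and -0.29), CG2790 (0.37 and -0.24), the vesicle GTPase gene Rab3 (0.26 and -0.16) and Upf3, a factor of nonsense-mediated decay (0.18 and -0.19), were the others named in this direction. Of these 5, the glucose response of CG9705 was called (adjusted p = 0.0305, limma) and the other 9 responses were not.

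Genes of energy metabolism lay almost entirely on the glucose side. Over 5 lists, glycolysis, beta-oxidation, the TCA cycle, complex I and the nuclear genes of complexes III to V, 90 of 92 measured genes had a positive difference (97.8%, against 58% of all genes). The median was 0.31, a 1.24-fold larger response, against 0.07 over all genes. The median response was 0.65 with glucose and 0.29 with fructose. No member was called, and 6 of the 92 were positive at an unadjusted p under 0.05, against 2.32% of all genes, with none negative. The interval reached beyond 1 for 28 members.

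Glycolysis had 12 of 12 genes positive, with a median of 0.40. Of them 8 rose past the threshold with glucose and 2 with fructose, against 16.7% and 9.38% of all genes. Pfk, the phosphofructokinase, stood at 357, 402 and 392 on CFD, 547, 446 and 470 on HFD, 363, 407 and 403 on CGD and 602, 873 and 654 on HGD. The high-sugar libraries of Pfk were above their controls for both sugars, by 0.34 with fructose (adjusted p = 0.129, limma) and 0.84 with glucose (adjusted p = 0.00119), and the difference was 0.50 (95% interval 0.04 to 0.96). Eno, the enolase, had 0.47 (95% interval -0.10 to 1.05).

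Beta-oxidation had 20 of 20 genes positive and a median of 0.32. Mfe2, the multifunctional enzyme of peroxisomal oxidation, rose from 851 to 1051 on CFD to 1439 to 1794 on HFD, and from 887 to 1206 on CGD to 2177 to 3193 on HGD. Both of its responses were called, 0.76 and 1.34, and they differed by 0.58 (95% interval 0.06 to 1.11). For CG4860 the difference was 0.55 (95% interval 0.04 to 1.06). In the TCA cycle 17 of 17 genes were positive, with a median of 0.30. CG6439, a subunit of NAD-dependent isocitrate dehydrogenase (Idh3b), stood at 247 to 261 on CFD, 285 to 356 on HFD, 223 to 244 on CGD and 393 to 457 on HGD. No high-sugar library of CG6439 overlapped its control, and the difference was 0.54 (95% interval 0.15 to 0.92). SdhA, the flavoprotein of succinate dehydrogenase, had 0.50 (95% interval 0.02 to 0.98), which was 0.31 without HGD replicate 2.

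In the respiratory chain, complex I had 21 of 22 genes positive and complexes III to V 20 of 21, each with a median of 0.30. CoVa, subunit 5A of cytochrome c oxidase, was flat with fructose (1063 to 1379 on CFD and 1141 to 1344 on HFD). With glucose CoVa overlapped by a single library, from 1101 to 1583 on CGD to 1569 to 2110 on HGD, and the difference was 0.55 (95% interval 0.03 to 1.07). The complex III core gene CG3731 (UQCR-C1) had 0.58 (-0.04 to 1.2) and the complex I genes CG3192 (ND-ASHI) and Pdsw 0.46 (-0.07 to 0.99) and 0.40 (-0.06 to 0.85). The genes that the mitochondrial genome itself encodes did otherwise: 4 of 14 were positive and the median was -0.20. mt:CoII held 7573 to 17985 on CFD, 5392 to 11318 on HFD, 15003 to 18504 on CGD and 5333 to 22384 on HGD, and its difference of -0.52 had an interval from -1.97 to 0.94. The largest value of that list, 2.65 for mt:ND3, rested on HFD replicate 1, where it held 3.09 against 256 to 1593 in the other libraries, and was 0.13 without it. The list median was -0.86 without HFD replicate 1, 0.15 without CFD replicate 3 and 0.26 with the mean level of the muscle list as a covariate.

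Single libraries carried part of the size of these medians but not their sign. HGD replicate 2 had the highest mean level of glycolysis on its diet (11.14 on the log2 scale, against 10.69 to 10.73 in the other HGD libraries), and without it the glycolysis median was 0.23. CGD replicate 3 was the highest of the CGD libraries (10.42 against 9.85 and 10.01). The beta-oxidation median was 0.52 without CGD replicate 3 and 0.21 without HGD replicate 2. Without HFD replicate 3 that of the TCA cycle was 0.13 and that of complexes III to V 0.18, and without CGD replicate 2 that of complex I was 0.16. Without HFD replicate 1 the TCA cycle and complexes III to V had 0.45 and 0.46.

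Muscle markers also had mostly positive differences, and larger ones, but their medians between the sugars were unlike those of the energy lists. For muscle, CGD minus CFD was -0.67 and HGD minus HFD 0.09, beside 0.16 and 0.20 over all genes. For the 5 energy lists these medians were 0.06 to 0.23 and 0.42 to 0.52. Of the 23 measured markers, 22 were positive, with a median of 0.70, and 6 were positive at an unadjusted p under 0.05, against 2.32% of all genes. The median was 0.44 without CFD replicate 3 and 1.03 without CFD replicate 1. The mean log2 level of the list was 8.21 to 9.17 on CFD, 9.32 to 9.72 on HFD, 7.84 to 8.54 on CGD and 9.35 to 9.74 on HGD. Summed, the list held 17489 to 30411, 34846 to 45180, 11857 to 20680 and 35025 to 49439. The defining genes were present throughout: Mlc2, the regulatory light chain of myosin, held 1808 to 4393 on CFD, 6506 to 8522 on HFD, 986 to 2400 on CGD and 7256 to 11355 on HGD (difference 1.39, 95% interval 0.32 to 2.46). Muscle uses glycolysis and oxidation heavily. None of the 92 energy genes is among the 23, which follows from how the lists were written. With the muscle level as a covariate the medians were 0.35 for glycolysis, 0.45 for beta-oxidation, 0.36 for the TCA cycle, 0.33 for complex I and 0.41 for complexes III to V, and 12, 20, 16, 22 and 20 members were positive. The muscle level was itself higher on each high-sugar diet than on its control, without overlap. Such a fit therefore cannot separate muscle content from diet. Whether muscle RNA carried the differences of the energy genes was not tested. Fewer muscle cells and less RNA per cell cannot be told apart in such samples.

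**Figure D3:**
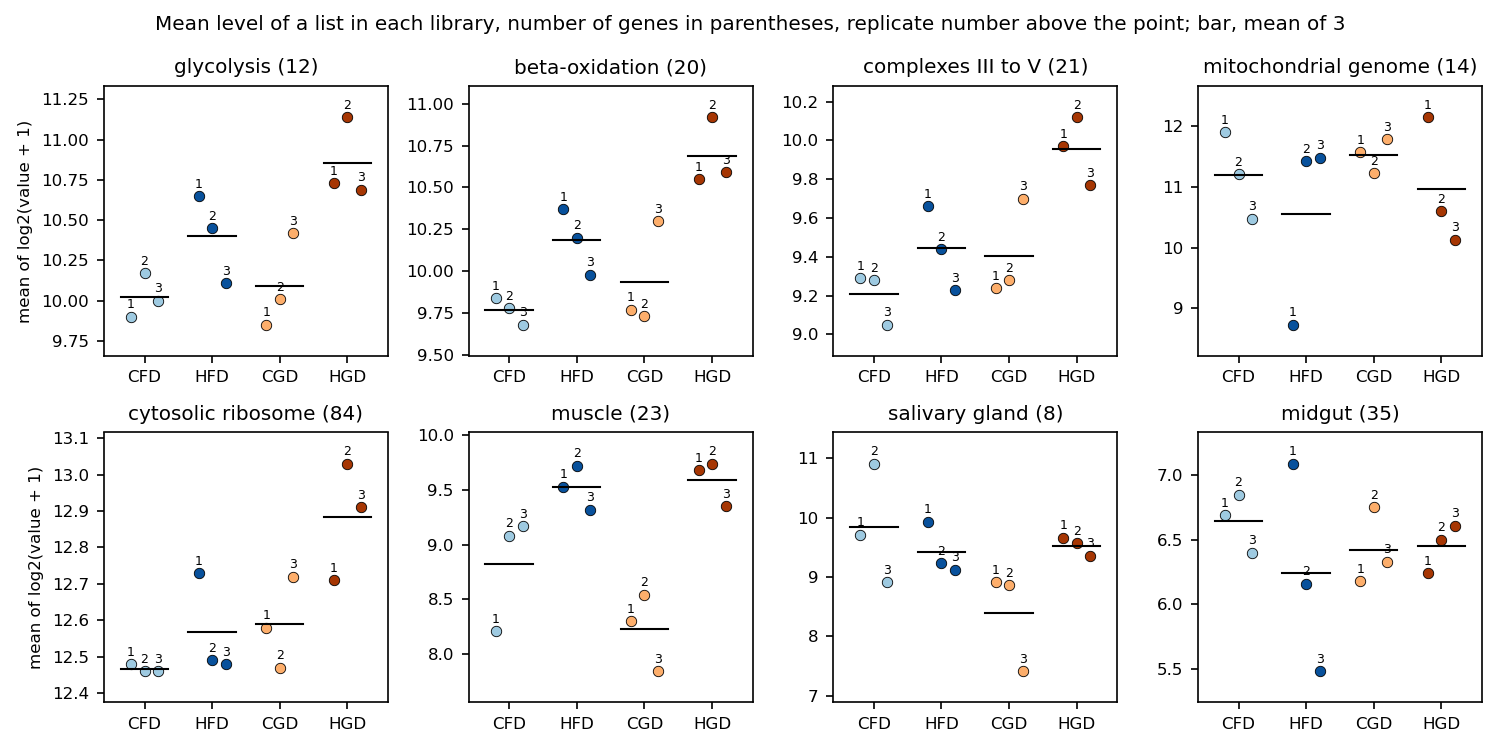
Mean of log2(value + 1) over the genes of 8 lists (y axis) in each library by diet (x axis), with replicate numbers and the mean of 3 as a bar. Glycolysis, beta-oxidation and complexes III to V rose more from CGD to HGD than from CFD to HFD, HFD replicate 1 stood far below the others in mitochondrially encoded genes, and muscle markers were lowest in CGD replicate 3.

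The first steps of sugar use showed smaller differences. For the sugar entry list 13 genes were counted: hexokinases, aldose and aldo-keto reductases, sorbitol dehydrogenases, the aldolase and enzymes of galactose and other sugars. Of these 10 were positive. None reached an unadjusted p under 0.05, against 2.32% positive and 1.98% negative of all genes. The list median was 0.22 (0.09 without HGD replicate 2 and 0.35 without HGD replicate 3). Hex-A, the main hexokinase, held 232 to 270 on CFD, 266 to 305 on HFD, 255 to 261 on CGD and 281 to 417 on HGD. Its libraries overlapped with fructose and not with glucose, and its difference was 0.26 (95% interval -0.20 to 0.71). Hex-C, a hexokinase gene read at 6.34 to 30.2 per library, had 0.53 with a wide interval (-0.60 to 1.66).

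In the polyol route, the sorbitol dehydrogenase gene Sodh-1 fell with both sugars. It held 506 to 807 on CFD and 69.1 to 151 on HFD, then 586 to 1402 on CGD and 176 to 330 on HGD. No libraries overlapped, the responses were -2.51 and -1.91, both called, and their difference was 0.60 (95% interval -0.48 to 1.69). Sodh-2 overlapped for both sugars and had 0.36 (-0.41 to 1.13). The aldose reductase gene CG6084 (Akr1B) rose from between 242 and 376 to between 645 and 901 with fructose and from between 347 and 685 to between 704 and 1575 with glucose. Its responses of 1.28 and 1.25 were both called and differed by -0.04 (95% interval -0.93 to 0.86).

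Other aldo-keto reductases, CG10638 (0.22), CG9436 (0.16), CG10863 (0.36) and CG2767 (-0.03), and the aldolase Ald (0.12) had intervals that all included 0. Galk, the galactokinase, rose with both sugars past the threshold, and its difference was 0.18 (95% interval -0.40 to 0.75). CG13369 and CG7328 had 0.24 and -0.19. Of all 13, intervals lay within 1 log2 unit of 0 for Hex-A, CG9436, CG13369, CG6084, CG2767, Ald, CG10638 and Galk, so a 2-fold difference lay outside them.

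Sugar transporters of the SLC2 type were spread widely to both sides. Among 19 measured genes 10 were positive and 9 negative, and the median was 0.01 (-0.02 with median-of-ratios scaling). On each side 2 reached an unadjusted p under 0.05, against 2.32% positive and 1.98% negative of all genes. CG33282 fell with both sugars and further with glucose: 28.3, 17.9 and 27.8 on CFD, 6.60, 5.46 and 2.13 on HFD, 56.2, 74.0 and 69.6 on CGD, and 1.91, 10.1 and 1.93 on HGD. Its difference was -1.65 (95% interval -3.11 to -0.19), and 3 high-sugar libraries held under 3 counts on the normalized scale, so the size depends on the pseudocount. CG15408 had the same pattern, with responses of -1.21 and -2.06 and no overlap for either sugar (difference -0.85, 95% interval -1.54 to -0.17).

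CG1213 went the other way, from 19.3, 22.1 and 27.2 on CFD to 81.3, 72.5 and 42.9 on HFD and from 23.1, 18.6 and 16.4 on CGD to 68.0, 168 and 130 on HGD. Its responses of 1.45 and 2.51 were both called and differed by 1.07 (95% interval 0.10 to 2.04). CG4797 had 0.50 (95% interval 0.00 to 1.0). Tret1-1, the trehalose transporter, rose with both sugars (difference 0.32, 95% interval -0.19 to 0.83), and Glut1, a glucose transporter, fell with both (0.45, -0.13 to 1.04). CG1208 rose with fructose past the threshold (2.21) and had 0.98 with glucose, where CGD replicate 1 stood at 121 against 15.9 and 33.0. Its difference of -1.24 (95% interval -3.10 to 0.63) was -0.46 without that library.

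**Figure D4:**
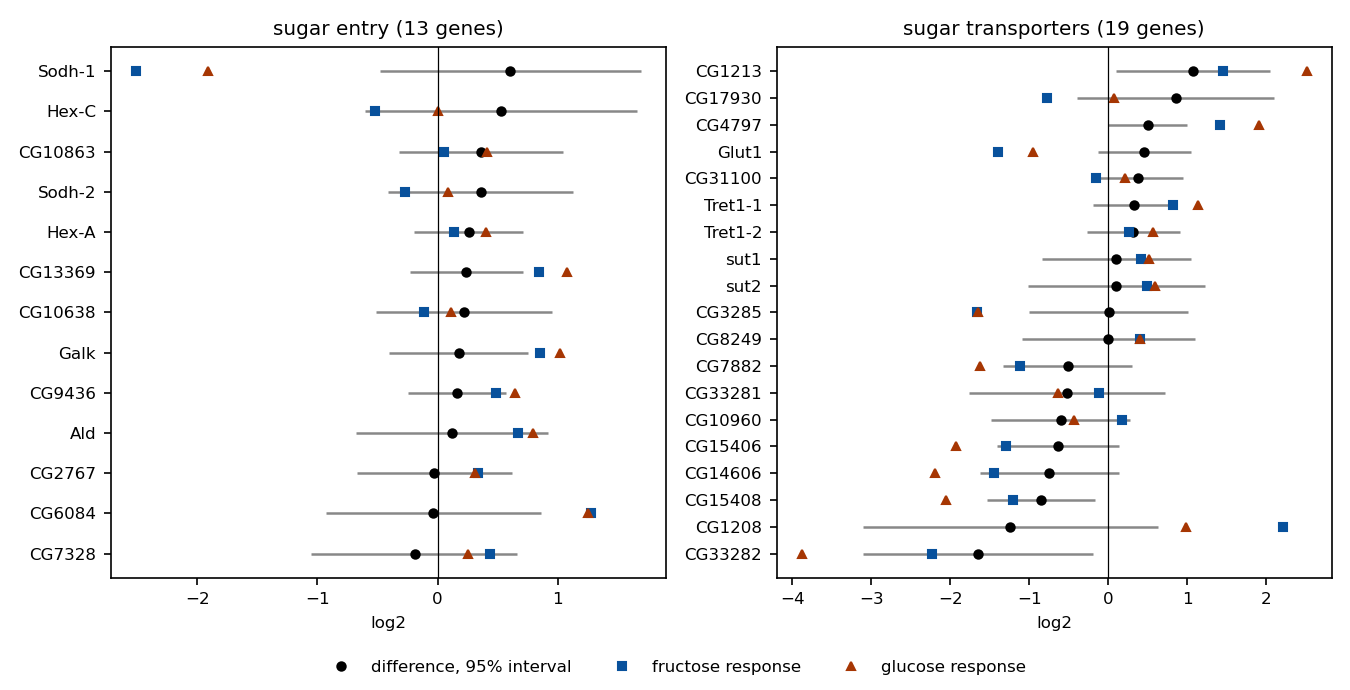
Fructose response (squares), glucose response (triangles) and their difference with its 95% interval (dots and bars), all in log2 on the x axis, for the genes of the sugar entry and sugar transporter lists. All 13 intervals of the sugar entry list included 0, and the transporters ran from -1.65 for CG33282 to 1.07 for CG1213.

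In gluconeogenesis, trehalose and glycogen 16 of 18 genes were positive, with a median of 0.33 (0.24 without CGD replicate 2 and 0.46 without CGD replicate 3). Rises past the threshold numbered 14 with glucose and 7 with fructose, against 16.7% and 9.38% of all genes. GlyP, the glycogen phosphorylase, had 0.61 (95% interval -0.08 to 1.31) and fbp, the fructose-1,6-bisphosphatase, 0.65 (-0.14 to 1.45). Pentose phosphate genes had 8 of 9 positive and a median of 0.27, which was 0.08 without HFD replicate 3 and 0.54 without CGD replicate 3. Zw, the glucose-6-phosphate dehydrogenase that opens that pathway, rose from between 71.0 and 95.8 to between 212 and 432 with fructose and from between 70.4 and 93.5 to between 295 and 519 with glucose (difference 0.46, 95% interval -0.32 to 1.23). CG17333, the 6-phosphogluconolactonase (Pgls), had 0.48 (-0.03 to 0.98).

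Fat synthesis rose strongly with both sugars. The median response was 1.43 with fructose and 1.46 with glucose, and 10 and 11 of 14 genes rose past the threshold, against 9.38% and 16.7% of all genes. The median difference of 0.13 turned to -0.05 without HFD replicate 3 and was 0.40 without CGD replicate 3. Lpin, the phosphatidate phosphatase, had responses of 0.90 and 1.3, both called (difference 0.40, 95% interval -0.10 to 0.90). Gpo-1, the mitochondrial glycerol-3-phosphate dehydrogenase, rose from between 61.6 and 75.2 to between 349 and 947 with fructose and from between 67.6 and 98.9 to between 891 and 2476 with glucose. Its difference was 0.86 (95% interval -0.27 to 1.99), and 0.39 without HFD replicate 3.

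Regulators moved less. The insulin and TOR list had 14 of 19 genes positive and a median of 0.17, and the sugar-sensing list 11 of 12 and 0.13. These medians were 0.09 without CFD replicate 3 for the first and 0.29 without CGD replicate 3 for the second. foxo, the transcription factor that insulin signalling inhibits, held 579 to 680 on CFD, 720 to 769 on HFD, 549 to 598 on CGD and 750 to 870 on HGD. Both pairs were free of overlap, the glucose response of 0.50 was called (adjusted p = 0.00701, limma) and the fructose response of 0.22 was not (adjusted p = 0.219), and the difference was 0.28 (95% interval -0.08 to 0.65). chico, the insulin receptor substrate, had -0.44 (-1.01 to 0.12). SNF1A, the catalytic subunit of AMP-activated kinase, had 0.32 (-0.09 to 0.72) and ERR, a nuclear receptor that drives glycolytic genes in larvae, 0.35 (-0.07 to 0.76).

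Amino acid and purine genes were mostly positive: 16 of 18 with a median of 0.24, and 8 of 10 with a median of 0.23. The amino acid median was 0.07 without CGD replicate 1 and 0.43 without CGD replicate 3, and the purine median 0.14 without HGD replicate 2 and 0.37 without CGD replicate 3. Here the median responses were falls or close to 0: -0.27 with fructose and 0.04 with glucose for the amino acid list, and -0.32 and -0.03 for the purine list. v, the tryptophan dioxygenase, fell with fructose from 260 to 342 on CFD to 133 to 164 on HFD (response -1.02, adjusted p = 0.00416, limma), while CGD (289 to 449) and HGD (204 to 320) overlapped. The difference of v was 0.67 (95% interval 0.04 to 1.3). For Gs1, a glutamine synthetase, the difference was 0.42 (-0.09 to 0.93) and for ade2 of purine synthesis 0.39 (-0.10 to 0.88). Uro, the urate oxidase, fell further with glucose, from 838, 942 and 1334 on CGD to 165, 249 and 196 on HGD. With fructose Uro went from 652, 443 and 242 to 182, 250 and 153, where the groups overlapped, and the difference was -1.23 (95% interval -2.17 to -0.29).

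Ribosomal protein genes were positive in 68 of 84 cases, with a median of 0.19, and of the 84, 21 rose past the threshold with glucose and 5 with fructose, against 16.7% and 9.38% of all genes, so the share with fructose was below that of all genes. Without HGD replicate 1 the median was 0.32. RpS21 fell with fructose from between 2900 and 3241 to between 1796 and 2349 and overlapped with glucose (2442 to 3501 on CGD and 2435 to 3560 on HGD). The difference of RpS21 was 0.64 (95% interval 0.10 to 1.19) and that of RpL23 0.57 (-0.01 to 1.15). Nucleolar and Myc-type factors of ribosome biogenesis were on the other side, 9 of 11 negative with a median of -0.12 (-0.05 without CGD replicate 1), and ns1, a nucleostemin, had -0.56 (-1.14 to 0.02). Initiation factors were even, 15 positive and 13 negative, and eIF4G, the scaffold of the cap-binding complex, had -0.47 (-1.15 to 0.20).

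Heat shock proteins and chaperones had 11 of 15 negative, with a median of -0.18 (-0.06 without CGD replicate 2). DnaJ-1, an Hsp40 cochaperone, held 407 to 585 on CFD, 635 to 848 on HFD, 617 to 740 on CGD and 562 to 842 on HGD. It rose with fructose (0.66, adjusted p = 0.0219, limma) and overlapped with glucose, and the difference was -0.63 (95% interval -1.18 to -0.07). Hsp70Ba had the largest value, -2.19 (-3.73 to -0.64), at 2.02 to 18.7 normalized counts per library. Hsp70 genes are near-identical copies that counting can split, so that value is uncertain.

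Antimicrobial peptide genes were mostly positive, and those listed with the Bomanins mostly negative. Of 9 antimicrobial peptide genes 8 were positive, with a median of 0.57 (0.21 without HGD replicate 1). None reached an unadjusted p under 0.05, against 2.32% positive and 1.98% negative of all genes. Mtk, the Metchnikowin gene, ranged from 25.2 to 124 among HGD libraries alone, and its difference of 1.36 had an interval of -0.26 to 2.98. AttC had 0.57 (-0.23 to 1.38). Among 5 genes listed as Bomanins and other immune-induced peptides 4 were negative. The median was -1.46, which became -0.57 without CGD replicate 1 and -2.37 without HFD replicate 1. CG16712 was the positive gene (0.52), with responses of -0.36 to fructose and 0.15 to glucose. IM3, a gene of the study's own table, held 4.38, 8.85 and 1.01 on CFD and 149, 183 and 163 on HFD, then 81.8, 8.19 and 33.9 on CGD and 189, 114 and 258 on HGD. It rose past the threshold with both sugars without overlap, by 5.12 and 2.58, and the difference was -2.54 (95% interval -4.57 to -0.52). The control libraries carried much of this spread: CGD replicate 1 alone stood at 81.8, and without it the difference of IM3 was -1.81. Its neighbour CG15068 (BomS6) had -1.46 (-3.72 to 0.81). pirk, a brake on Imd signalling, had 0.83 (0.03 to 1.64).

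Hormone genes included a pair with opposite signs. gce, a juvenile hormone receptor, rose with both sugars from 274 to 318 on CFD to 376 to 409 on HFD and from 244 to 276 on CGD to 453 to 511 on HGD. The 2 responses, 0.39 and 0.91, were both called without overlap and differed by 0.52 (95% interval 0.15 to 0.89). Jhedup, a duplicate of the juvenile hormone esterase gene, held 8.89, 8.52 and 3.87 on CFD, 21.2, 18.3 and 23.0 on HFD, 25.0, 12.9 and 15.3 on CGD and 13.6, 21.1 and 15.6 on HGD. It rose with fructose (1.5, adjusted p = 0.00738, limma) and was flat with glucose (-0.04), a difference of -1.54 (95% interval -2.56 to -0.52). The juvenile hormone list as a whole had 6 of 8 positive and a median of 0.37 (0.17 without HGD replicate 2). Ecdysone synthesis and breakdown had 4 of 6 negative. Among 68 cytochrome P450 genes 46 were positive with a median of 0.13 (0.03 without CFD replicate 2), and Cyp6a2 (1.93, 95% interval 0.44 to 3.42) and Cyp9c1 (0.88, 0.10 to 1.66) stood highest by t.

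Markers of other tissues varied between libraries as well as diets. All 8 salivary gland glue genes were positive, with a median of 1.57 (0.99 without CGD replicate 3), and the list medians between the sugars were -1.49 at 0.3 M and 0.03 at 1.7 M (CGD minus CFD and HGD minus HFD), beside 0.16 and 0.20 over all genes. The glue genes summed to 11832 to 41915 on CFD, 16340 to 18308 on HFD, 2786 to 12762 on CGD and 12578 to 20488 on HGD. Sgs5 held 1075, 2469 and 342 on CFD, 694, 158 and 194 on HFD, 603, 310 and 117 on CGD and 314, 516 and 418 on HGD, and its difference was 2.34 (95% interval 0.21 to 4.47). Sgs8 had 1.69 (0.19 to 3.20), and 1.05 without CGD replicate 3. Midgut markers had 30 of 35 positive and a median of 0.46. None reached an unadjusted p under 0.05, against 2.32% positive and 1.98% negative of all genes. The median was 0.13 without HFD replicate 3 and 0.87 without HFD replicate 1, and the summed level was 15788 to 29073 on CFD, 9225 to 20549 on HFD, 17103 to 26586 on CGD and 11518 to 18260 on HGD. Of this list the digestive protease gene betaTry had 1.17 (-0.41 to 2.76) and the maltase gene Mal-B2 0.54 (-0.06 to 1.14). Hemocyte markers had 7 of 9 negative and a median of -0.04 (-0.70 without CFD replicate 1 and 0.49 with the muscle level as a covariate), with eater, a phagocytic receptor, at -1.19 (-2.36 to -0.02). Markers of neurons, cuticle, trachea, imaginal discs and ovary had medians from -0.03 to 0.15.

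The 12 genes that the study lists for glucose against fructose were chosen on these libraries, at one concentration each, so their differences are no independent evidence. Of them 9 were positive and 3 negative (CG13075, IM3 and CG33282). CG6602, the one the study lists at 1.7 M, held 0.735, 8.03 and 4.20 on CFD, 14, 8.79 and 3.21 on HFD, 9.19, 5.29 and 5.49 on CGD and 44.9, 72.5 and 55.7 on HGD. The HGD libraries were all above those of CGD, the glucose response was 2.95 (adjusted p = 0.00172, limma) and the fructose response 0.98 (adjusted p = 0.244). The difference was 1.97 (95% interval 0.27 to 3.68), with 2.63 without CFD replicate 1. CG33128 rested on CFD replicate 2, which held 834 against 30.9 and 135, and its difference of 1.04 was -0.18 without that library. CG5767 (1.89), CG7606 (1.57), CG15404 (1.43), CG42798 (0.93) and the glue genes Sgs7 (1.45) and Sgs3 (1.09) were positive, and with the muscle level as a covariate the median of all 12 went from 1.06 to 0.46.

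**Figure D5:**
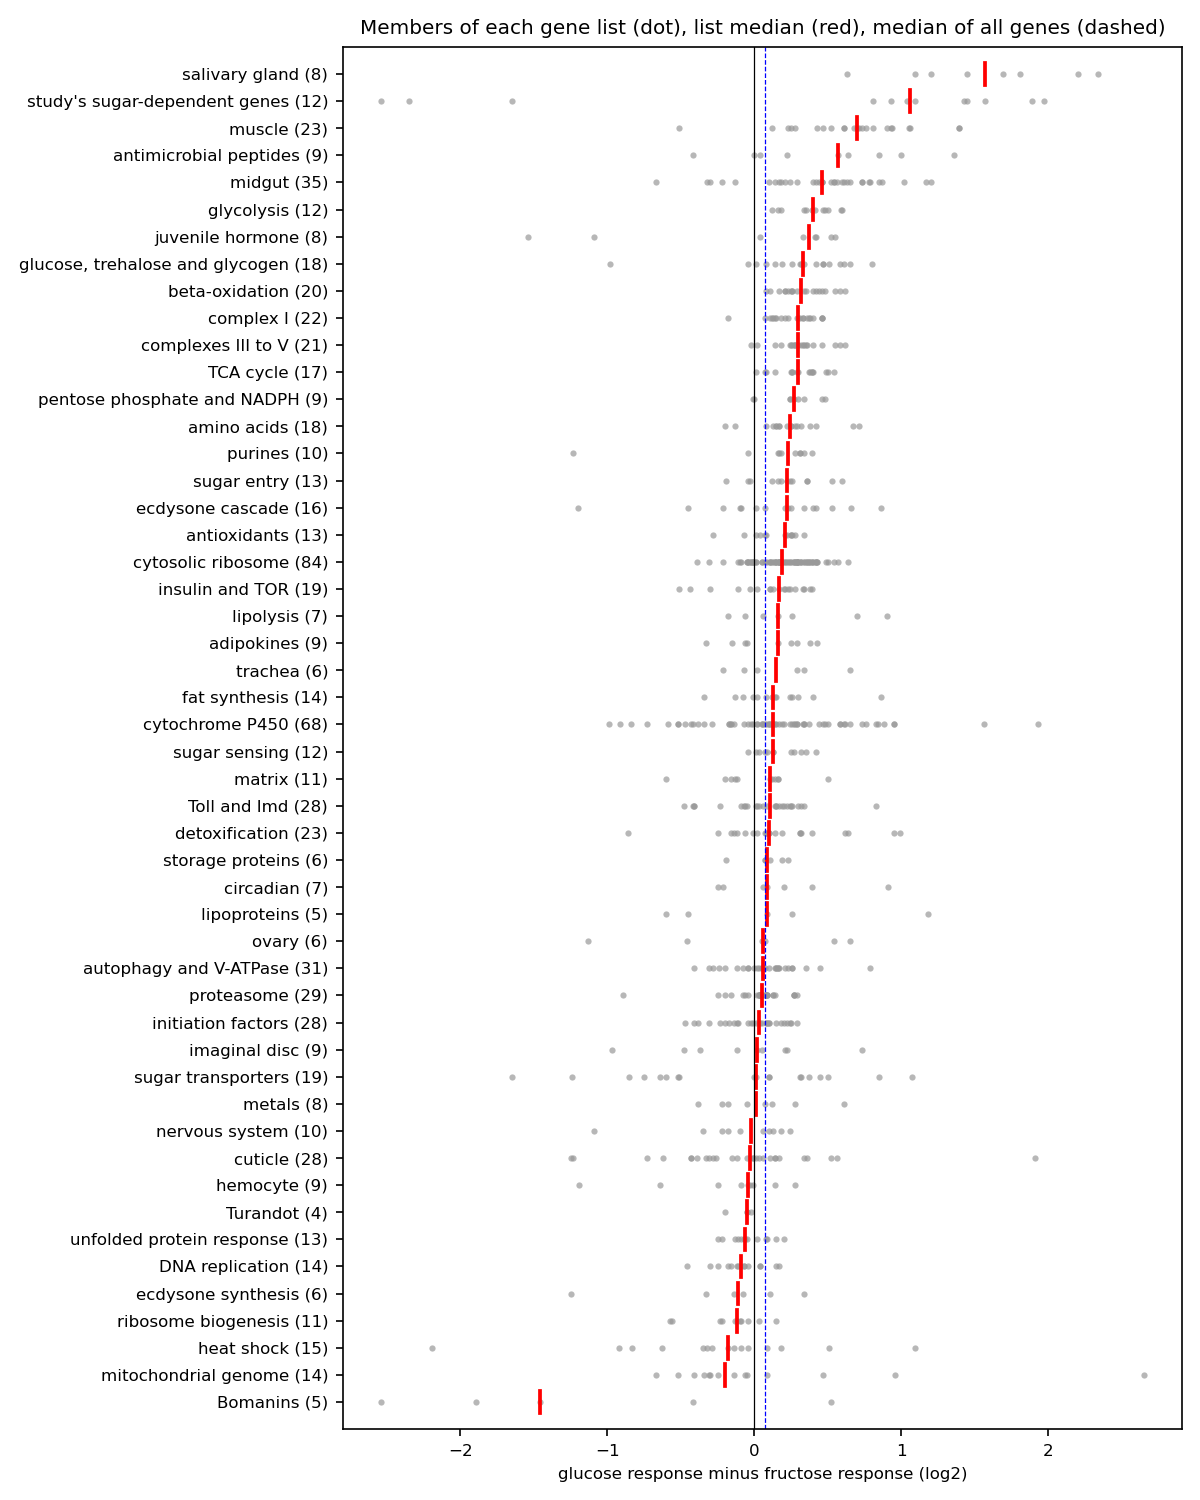
Difference between the glucose and the fructose response (x axis, log2) for every measured member of the 50 gene lists (one dot each), with the list median in red, 0 as a solid line and the median of all genes, 0.07, dashed; the number of members is in parentheses. Apart from the list of the study's own table, salivary gland and muscle markers had the highest medians and the Bomanin list the lowest. Among their members are Sgs3, Sgs7, wupA and IM3 of that table. Lists of energy metabolism clustered at 0.30 to 0.40.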

How the data were processed

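For 9500 genes in 12 libraries the authors deposited a normalized read signal, in a single table. Per the study's methods, the authors aligned reads with TopHat to Ensembl_R72, counted them with HTSeq and ran the exact test of edgeR. TopHat 1.3.2, Bowtie 0.12.7, Cufflinks 1.1.0 and dm3 stand in the submitters' processing notes, and the sources used here do not say which of these made the table. Within 0.0001, whole reads brought to a common library size within each sugar return at least 99.99% of the deposited signal values in every library, and every listed gene has a read in every library.

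The values were set on a log2(value + 1) scale, which understates changes of low genes, and fitted with limma 3.58.1 (R 4.3.3, eBayes, trend on) with 4 diet groups, Benjamini-Hochberg adjustment and a threshold of 0.05. Lists were described by counts and medians, without a test. The members and lists were chosen with earlier results of these data known. Named genes were the 12 largest and 12 smallest moderated t of the difference with a mean of at least 20, up to 6 each way with opposite non-overlapping responses, the study's table, 2 per list by absolute t, 5 extremes of the pooled contrast each way, the sugar entry list, Dcr-2 and InR. Some list genes are not printed, 1 gene of the sugar entry list is not reported here and was left out of its counts, and CG1213, CG4797, Glut1, Tret1-1 and CG1208 were added after their values were seen. Of the gene IDs, 9073 were found among BDGP6.54 names, which is not the authors' build, and 4 symbols that a spreadsheet had turned into day numbers were restored by gene ID. The labels do not say that replicates came from separate cultures, so p-values measure the spread between these libraries. The test was checked on data with known changes. The fold change and p-value columns of the authors' comparisons were not used.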

Additional observations from a re-analysis of the deposited data

How the results depend on the processing

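The count of called genes was 0 under each of the 20 alternatives: other scalings, pseudocounts of 0.1 and 5, a mean of at least 20, limma-voom on recovered reads, the replicate block, the muscle level as a covariate and each library left out. At an unadjusted p under 0.05 the 408 genes became 184 with library totals and 255 to 931 over the single omissions, lowest without CFD replicate 2 and highest without HGD replicate 1. The replicate block gave 353 genes and 0 calls. Libraries sharing a replicate number had correlations of -0.44 to 0.26 in their deviations from the diet means, with 2 of 18 over 0.1. With 3 libraries per diet such deviations depend on one another, so these values cannot settle whether the numbers pair the libraries.

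Glucose gave the larger fall in 55.2% of the genes that fell on the pooled contrast and in 49.1% to 60.9% over the single omissions, lowest without HFD replicate 1, and the larger rise in 70.3% to 81.1% of those that rose. With the muscle covariate 634 genes were called for high sugar over both diets, against 3984. Of the 120 genes with printed differences, 108 kept their sign in every alternative that measured them. The exceptions over single omissions ran from -0.14 to 0.47 for Ald, -0.05 to 0.41 for CG10638, -0.17 to 0.19 for CG2767, -0.03 to 0.66 for CG32335, -0.18 to 2.17 for CG33128, -0.30 to 0.28 for CG6084, -0.39 to 0.15 for CG7328, -0.34 to 0.61 for CG9672, -0.02 to 1.40 for Cyp4e3, -0.21 to 0.11 for Dcr-2 and -0.75 to 0.03 for obst-J. With the muscle covariate the differences of CG2767, CG33128, CG6084, Dcr-2 and InR were 0.19, -0.54, 0.01, 0.07 and -0.04, and with limma-voom that of CG9672 was -0.09. The cause of these reversals was not tested. Of 50 list medians, 29 kept their sign under every single omission. Low genes had the widest intervals: the 95% interval lay within 1 log2 unit of 0 for 2.75% of genes with a mean under 20.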
